A study of Rattus norvegicus with 13 samples.

Results

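The cadherins, protocadherins and catenins were described in the ventricular zone (VZ) of newborn rats. Their members were the deposited rows named as a numbered cadherin (*Cdh*), as a protocadherin (*Pcdh*), or as an alpha-, beta- or delta-catenin (*Ctnna*, *Ctnnb1*, *Ctnnd*), with a mean of at least 10 normalized counts over the 13 pups. This gave 50 rows with 49 gene names among 14606 rows tested (14716 deposited), since *Pcdh7* had 2 rows. Each of the 50 rows carried an Ensembl transcript identifier, and 0 rows of the family fell under the filter. *Pcdh19* was not analysed here.

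Total RNA was sequenced from the posterior VZ, cut out by laser, of Long Evans male pups on postnatal day (PN) 2. The control group was 7 pups whose dams drank deionized water, the vehicle, and the PTU group was 6 pups whose dams drank 3 ppm propylthiouracil (PTU), an inhibitor of thyroid hormone synthesis, from gestational day (GD) 6. Both groups were of the same strain, sex and age, 1 pup was taken from each litter, and the labels call the controls euthyroid. The captured strip is tissue rather than sorted cells, and fewer cells of a type and less RNA per cell cannot be told apart in it. The study reports some degradation of the captured RNA.

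Classical cadherins are adhesion proteins that hold neighbouring cells together through calcium-dependent binding of like to like. Inside the cell their tails bind beta-catenin and delta-catenins, and alpha-catenin couples this complex to actin. In the VZ the complex forms a belt at the apical end of radial glia, the neural progenitors whose endfeet line the ventricle, with N-cadherin (*Cdh2*) as its main cadherin. Type II cadherins and the non-clustered protocadherins are known for marking brain regions and neuron classes, and the clustered protocadherins give single neurons their surface identity.

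The estimated number of counted reads per pup was 22295435 to 44387126, and Pearson's r between pups, over rows, was 0.918 to 0.980. The 3 rows with the most counts, all unnamed, held 32.4 to 60.1% of the reads of control pups and 23.9 to 57.0% in PTU exposed pups. *Sox2*, a defining marker of the VZ, was present in every pup (5761 to 8384 normalized counts in controls and 5209 to 8028 in PTU exposed pups). *Ttr*, the main transcript of choroid plexus epithelium, was also present in every pup, at 43986 to 125906 in controls and 19913 to 84875 after PTU exposure.

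Between PTU exposed and control pups the log2 fold change was -0.21 for *Cdh2*, -0.32 for *Cdh4* and -0.70 for *Cdh3*, cadherins of the adherens belt and of epithelia. It was 0.23 for *Ctnna2*, the neuronal alpha-catenin, and 0.52 for *Pcdh1*. None of these 5 values passed the threshold once p-values were adjusted over all 14606 rows. Fold changes are differences of log2(normalized count + 1), a scale that understates shifts of rare transcripts. The standard error (SE) is given for the members named by the rule stated with the processing. In limma, 0 of 50 members and 0 of 14606 rows (0.0%) had an adjusted p of at most 0.05. Among members, *Cdh4* had the smallest, 0.175. An unadjusted p under 0.05 was found for 11 members (22%), where 16.3% of all rows had one. Of these 11 members, 7 were higher (8.11% of all rows) and 4 lower (8.2% of all rows) in PTU exposed pups. The groups did not overlap in 0 members and in 0.596% of all rows. The median log2 fold change was 0.08 over the members and 0.00 over all rows, with 29 members above 0 and 21 below. With 1 pup left out the median of the members lay between -0.02 and 0.11, and it was below 0 without PTU pup 1. Leaving out 1 pup turned the sign of 17 of the 50 members, and turned it or moved the value by over 1.5 times in 37. The 11 became 6 without control pup 5 (13.5% of all rows) or PTU pup 1 (14.3%) and 7 without PTU pup 3 (14.2%). In each of the 13 fits that left out 1 pup, 5 members (*Cdh2*, *Cdh3*, *Cdh4*, *Ctnna2* and *Pcdh1*) and 8.26% of all rows kept an unadjusted p under 0.05. The values of PTU pup 1 stood apart, for it was the highest of the 13 pups in 19 of 50 members, against 17.8% of all rows.

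**Figure D1:**
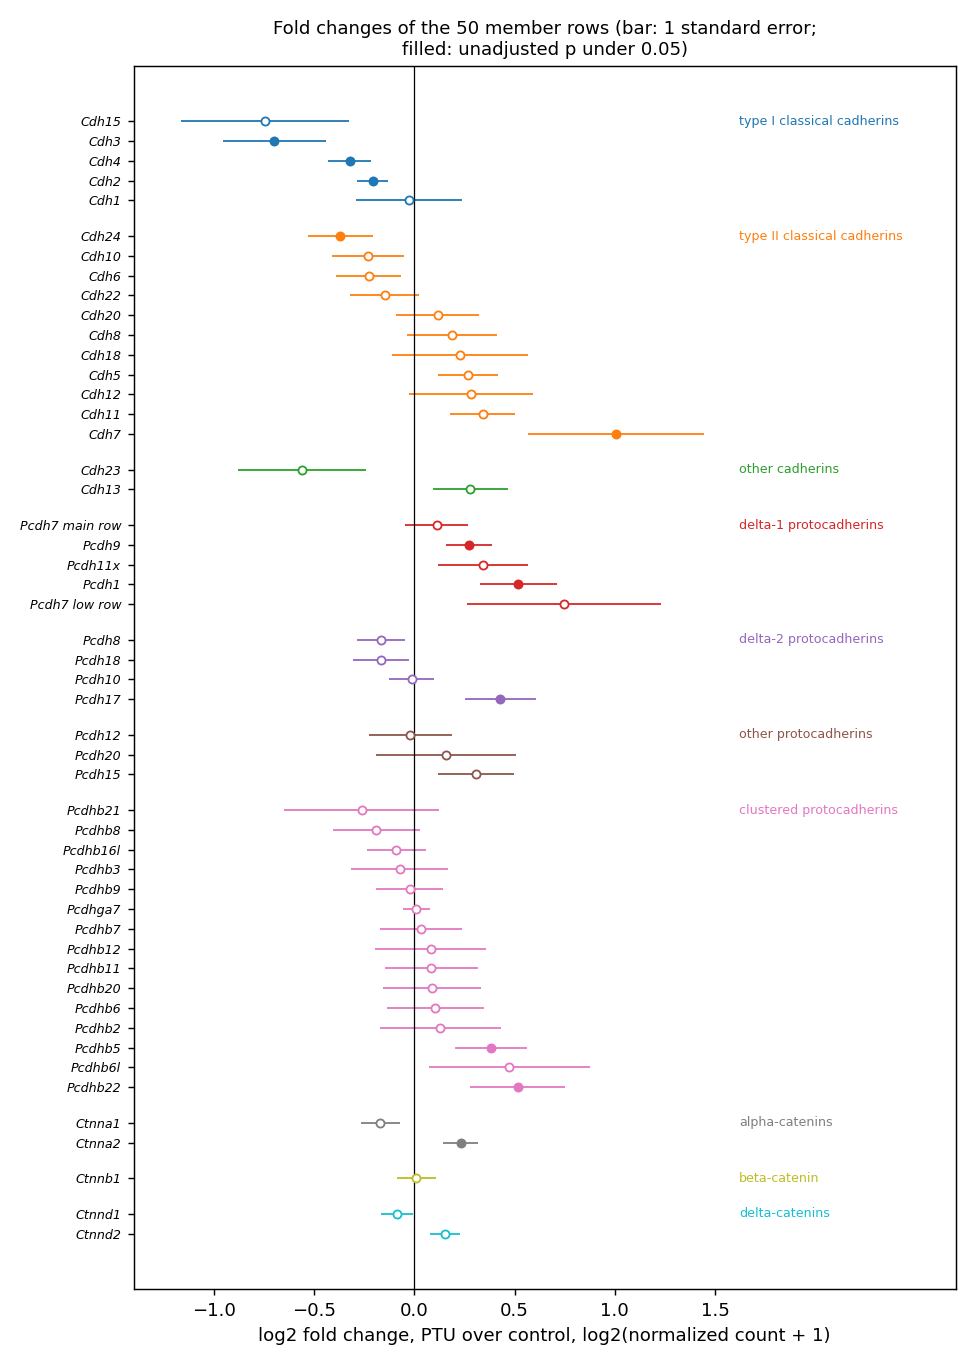
Log2 fold change (PTU exposed against control, x axis) of the 50 members by structural class (y axis), with bars of 1 standard error and filled points where the unadjusted p in limma was under 0.05. The 5 type I cadherins lie below 0, *Cdh1* at -0.03 and with no settled sign, and the 5 delta-1 protocadherin rows above it, the main *Pcdh7* row at 0.11 with a sign that turns when 1 pup is left out, with 11 filled points in all.

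With every pup brought to the same total, the median of all rows moved to 0.20, and an unadjusted p under 0.05 was found for 8 higher members (10.8% of all rows) and 0 lower members (0.554% of all rows), in place of 7 and 4. The sign of 12 of the 50 members turned from below to above 0. On that scale *Cdh2* was at -0.01, *Cdh4* at -0.12, *Cdh3* at -0.50, *Ctnna2* at 0.43 and *Pcdh1* at 0.72. Less the shifted median, which by construction nearly restores the deposited values, they were at -0.21, -0.33, -0.70, 0.23 and 0.52. The directions below are therefore relative to the bulk of transcripts.

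The promoters of 3 members with an unadjusted p under 0.05 are printed as the sequence beside those transcripts. RefSeq windows of 300 bases listed as promoters, most of each upstream of the start, matched 39 of the 49 gene names. Their build, GRCr8, is not the build of the counts, and whether each window holds a transcription start was not tested. *Cdh2*, *Cdh3*, *Cdh4* and *Ctnna1* were among the names with no match. Each is written 5′ to 3′ in the direction of the gene, *Ctnna2* at chr4:112001302-112001601 (minus strand), *Cdh7* at chr13:27197332-27197631 (plus strand) and *Cdh24* at chr15:32071234-32071533 (minus strand). Capitals mark a match to either of the motifs searched.
Ctnna2: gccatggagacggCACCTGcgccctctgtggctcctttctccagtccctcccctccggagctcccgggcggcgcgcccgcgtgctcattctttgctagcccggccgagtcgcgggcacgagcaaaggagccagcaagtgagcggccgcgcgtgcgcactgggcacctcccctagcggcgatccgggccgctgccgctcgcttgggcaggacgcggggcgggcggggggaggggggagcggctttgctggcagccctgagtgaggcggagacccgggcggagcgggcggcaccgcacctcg
Cdh7: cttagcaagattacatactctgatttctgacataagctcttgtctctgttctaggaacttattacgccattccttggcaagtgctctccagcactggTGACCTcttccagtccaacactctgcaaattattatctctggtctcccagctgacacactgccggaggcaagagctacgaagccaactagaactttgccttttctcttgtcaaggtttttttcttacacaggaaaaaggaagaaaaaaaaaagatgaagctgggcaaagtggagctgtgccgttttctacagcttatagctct
Cdh24: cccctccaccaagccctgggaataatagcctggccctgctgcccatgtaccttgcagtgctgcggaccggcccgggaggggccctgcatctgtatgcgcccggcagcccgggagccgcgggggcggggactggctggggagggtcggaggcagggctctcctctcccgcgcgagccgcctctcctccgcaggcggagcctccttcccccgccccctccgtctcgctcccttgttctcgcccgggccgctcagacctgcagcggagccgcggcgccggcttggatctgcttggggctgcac
The first motif was AGGTCA, the half-site of thyroid hormone receptors (TGACCT on the other strand), and it was held by 6 of 39 member promoters (15.4%) and 16.2% of all 33469 promoters. *Cdh7* held it, as did *Cdh12*, *Cdh18*, *Ctnnd1*, *Pcdh12* and *Pcdhb6l*. The second was CACCTG, an E-box known to be bound by Snail and ZEB repressors of E-cadherin (CAGGTG on the other strand), found in 3 of 39 member promoters (7.69%), those of *Ctnna2*, *Pcdh15* and *Pcdhb20*, and in 18.8% of all promoters. Matches of the motifs can overlap at their ends, and the *Cdh24* window held neither. The 12 beta cluster protocadherin promoters had a median GC content of 38.5%, against 56.7% for the other 27 members and 51.7% for all promoters.

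The 5 type I classical cadherins, which bind strongly and form the adherens belt, had a median log2 fold change of -0.32, and 3 of them (*Cdh2*, *Cdh3* and *Cdh4*) were lower at an unadjusted p under 0.05, as were 8.2% of all rows. With the same total for every pup the median was -0.12. *Cdh1*, at -0.03, had no settled sign, with a higher mean count in PTU exposed pups, values from -0.19 to 0.19 with 1 pup left out, and 0.17 with the same total. *Cdh2*, N-cadherin, had 13370 to 14955 normalized counts in control pups (median 14432) and 10286 to 13753 in PTU exposed pups (median 12782). All 6 PTU exposed pups were below the control mean and 5 were below the lowest control, with PTU pup 3 the only one inside the control range. The means were 14212 ± 691 (SD, n = 7) and 12340 ± 1250 (SD, n = 6), a log2 fold change of -0.21 (SE 0.08, limma adjusted p = 0.216, and p = 0.00233 by exact permutation, two-sided, unadjusted and computed for each of the 50 members). Leaving out any 1 pup kept the change between -0.24 and -0.16.

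*Cdh4*, R-cadherin, a close relative that can pair with N-cadherin, had 5178 to 7818 normalized counts in controls (median 5860) and 3705 to 5656 in PTU exposed pups (median 5049). The PTU exposed pups were all under the control mean and 3 were below the lowest control, with PTU pup 1 the lowest. The means of 6168 ± 889 (SD, n = 7) and 4936 ± 713 (SD, n = 6) gave a log2 fold change of -0.32 (SE 0.11, limma adjusted p = 0.175, exact two-sided permutation p = 0.0105, unadjusted). Across the 13 pups *Cdh4* was the member whose order most resembled that of *Cdh2* (Spearman's rho 0.77), followed by *Cdh24* (0.51). Among rows outside the family, the closest were a row with no gene name (rho 0.92), *Fam210b* (0.91), *Rab8b* (0.91), *Myo10* (0.89) and *Gucy1b2* (0.88). These values describe 13 pups that share 2 groups and 1 scaling.

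*Cdh3*, P-cadherin, an epithelial cadherin, ran from 346 to 1038 normalized counts in controls (median 851), and the PTU exposed pups had 256 to 832 (median 460). The groups overlapped over most of their range, with control pup 6 low and PTU pup 4 high. The means were 814 ± 238 (SD, n = 7) and 505 ± 191 (SD, n = 6), a log2 fold change of -0.70 (SE 0.26, limma adjusted p = 0.207, exact two-sided permutation p = 0.0472, unadjusted). The summed level of 8 choroid plexus markers, mostly that of *Ttr*, was likewise lowest among controls in pup 6 (48559). Among PTU exposed pups this sum was highest in pup 4 (97073) and lowest in pup 6 (22599), also the pup with the lowest *Cdh3*. The study describes the captured tissue as the pseudostratified ventricular epithelium and not as choroid plexus, while choroid plexus markers were counted in every pup. Their part in the *Cdh3* value was not tested. *Cdh15*, M-cadherin of muscle, rested on 9 to 41 estimated reads per pup and had 26.0 ± 15.5 and 13 ± 2.4 normalized counts (log2 fold change -0.75, SE 0.42, limma adjusted p = 0.38). *Cdh1*, E-cadherin of epithelia, had 95.0 ± 12.9 and 101 ± 44.6, with a log2 fold change of -0.03 (SE 0.27, limma adjusted p = 0.968).

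**Figure D2:**
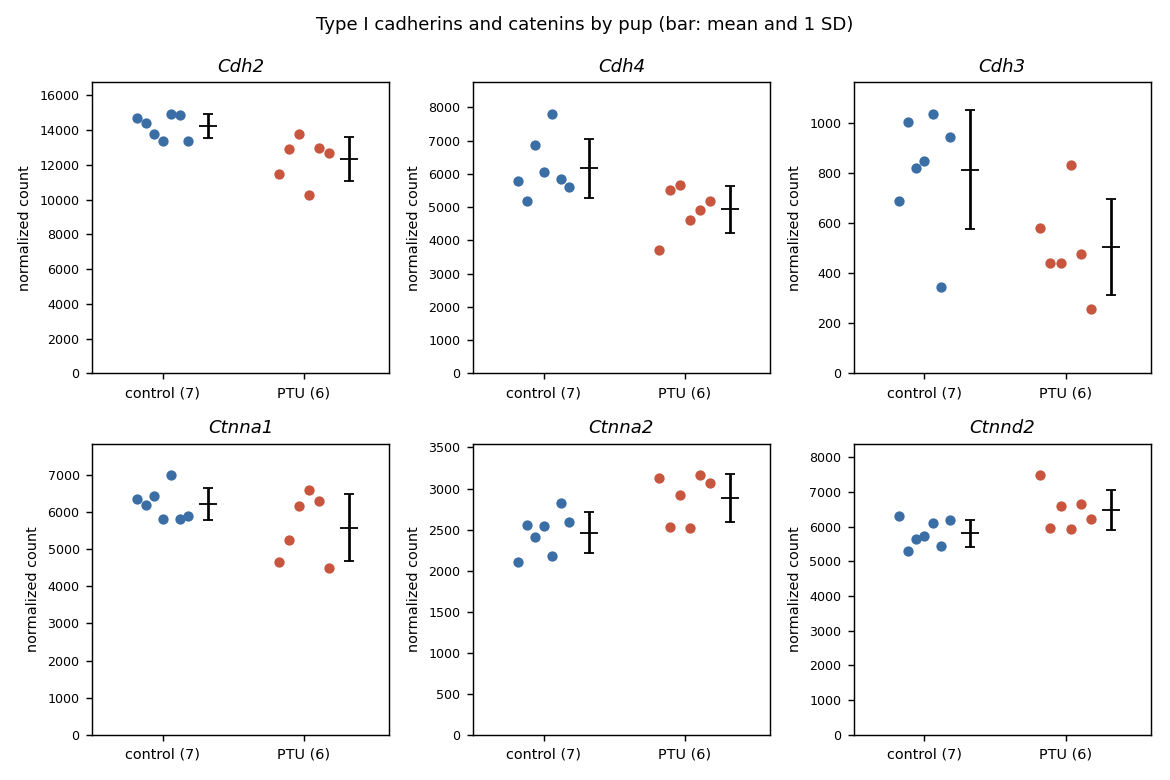
Normalized counts (y axis) of 3 type I cadherins and 3 catenins in each of the 7 control and 6 PTU exposed pups, with bars of the mean and 1 SD. In *Cdh2*, 5 PTU exposed pups lie below the lowest control, and in *Ctnna2* 4 lie above the highest control.

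The catenins, which tie the cadherins to the cytoskeleton, had values on both sides of 0. *Ctnnb1*, beta-catenin, the partner on the cadherin tail and also the effector of Wnt signalling, had 9486 to 12979 normalized counts in controls (median 10935) and 9325 to 12860 in PTU exposed pups (median 10487). The ranges nearly coincided, and PTU exposed pups differed from controls by 0.01 on the log2 scale (SE 0.10, limma adjusted p = 0.97). This value lay between -0.04 and 0.05 with each pup left out in turn.

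The alpha-catenins, which couple the complex to actin, were *Ctnna1* and *Ctnna2*, and neither passed the threshold. *Ctnna1*, the epithelial form, had 5810 to 6998 in controls (median 6198) and 4480 to 6605 in PTU exposed pups (median 5703), with 3 PTU exposed pups below the lowest control. For *Ctnna1* the log2 fold change was -0.17 (SE 0.10, limma adjusted p = 0.386), -0.11 without PTU pup 6, and 0.03 with the same total for every pup. *Ctnna2*, the neuronal form, had 2110 to 2822 in controls (median 2547) and 2523 to 3165 in PTU exposed pups (median 2993). All 6 PTU exposed pups were above the control mean and 4 above the highest control. The means of 2460 ± 249 (SD, n = 7) and 2889 ± 292 (SD, n = 6) gave a log2 fold change of 0.23 (SE 0.09, limma adjusted p = 0.217, exact two-sided permutation p = 0.0198, unadjusted).

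The delta-catenins, which steady cadherins at the membrane, did not pass it either. *Ctnnd1*, p120-catenin of many epithelia, had 3930 to 4537 normalized counts in controls (median 4243) and 3537 to 4682 after PTU exposure (median 3993), a log2 fold change of -0.09 (SE 0.08, limma adjusted p = 0.603) that became 0.12 with the same total for every pup. Without PTU pup 1 or PTU pup 2 it was -0.05, and without PTU pup 5 it was -0.13. *Ctnnd2*, the neural delta-catenin, had 5288 to 6321 in controls (median 5727) and 5945 to 7495 after PTU exposure (median 6415), with 6 of 6 above the control mean and 3 above the highest control. Its log2 fold change was 0.15 (SE 0.07, limma adjusted p = 0.318, exact two-sided permutation p = 0.0262, unadjusted).

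A ratio of a pair of members within a pup hardly depends on how the pup was scaled. For 2 pairs of paralogs and for *Cdh2* with its partner *Ctnnb1* this ratio was chosen after the values were seen, and it is given without a test. The log2 ratio of *Ctnna2* to *Ctnna1* was -1.34 ± 0.23 (SD, n = 7) in controls, from -1.68 to -1.04, and -0.94 ± 0.32 (SD, n = 6) after PTU exposure, from -1.39 to -0.55. The log2 ratio of *Ctnnd2* to *Ctnnd1* was 0.45 ± 0.12 in controls, from 0.30 to 0.65, and 0.69 ± 0.22 after PTU exposure, from 0.45 to 1.07. In both of these pairs the neural form was higher relative to its paralog in the mean of PTU exposed pups, while the ranges of the groups overlapped. The log2 ratio of *Cdh2* to *Ctnnb1* was 0.40 ± 0.16 in controls and 0.18 ± 0.28 after PTU exposure, and PTU pup 4 had the lowest value of -0.31. The difference of these means, -0.22, lay between -0.27 and -0.12 with 1 pup left out.

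Of the 11 type II cadherins, 7 had fold changes above 0 and 4 below (median 0.19, but 0.07 without PTU pup 1 and 0.12 without control pup 2), with 1 in each direction at an unadjusted p under 0.05, near the 16.3% of all rows. *Cdh24* had 653 to 944 normalized counts in controls (median 685) and 367 to 849 in PTU exposed pups (median 582), and 5 PTU exposed pups were below the lowest control, PTU pup 6 by less than 1 count. This gave a log2 fold change of -0.37 (SE 0.16, limma adjusted p = 0.279). *Cdh7*, known for marking subsets of neurons and neural crest cells, was a low transcript with 10.2 to 47.4 in controls (median 30.0) and 21.3 to 164 in PTU exposed pups (median 48.9). The value of 164 was that of PTU pup 1, and the log2 fold change of 1.01 (SE 0.44, limma adjusted p = 0.274) lay between 0.69 and 1.26 with each pup left out in turn.

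*Cdh11*, a cadherin of mesenchyme and of developing neurons, had 812 to 1150 in controls (median 997) and 918 to 2206 in PTU exposed pups (median 1192), again with PTU pup 1 the highest. Its log2 fold change of 0.34 (SE 0.16, limma adjusted p = 0.311) was 0.17 without PTU pup 1. *Cdh5*, VE-cadherin of endothelial junctions, had 510 ± 105 (SD, n = 7) and 608 ± 98.2 (SD, n = 6), a log2 fold change of 0.27 (SE 0.15, limma adjusted p = 0.377). The 6 endothelial markers tested had sums of 1690 to 2259 in controls and 1586 to 2606 in PTU exposed pups, and the part of vessels in the *Cdh5* value was not tested. The other 7 type II cadherins (*Cdh6*, *Cdh8*, *Cdh10*, *Cdh12*, *Cdh18*, *Cdh20* and *Cdh22*) had log2 fold changes from -0.23 for *Cdh10* to 0.28 for *Cdh12*. Single pups moved both ends, since without PTU pup 1 *Cdh10* was at -0.42 and *Cdh12* at 0.07, and *Cdh10* was at -0.14 without PTU pup 4. *Cdh12* was at 0.48 without control pup 7, 0.175 without control pup 4 and 0.179 without control pup 6.

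Among the cadherins that lack the classical tail, *Cdh13* (T-cadherin, held in the membrane by a lipid anchor) had 653 ± 180 and 786 ± 211 normalized counts, with a log2 fold change of 0.28 (SE 0.19, limma adjusted p = 0.468), or 0.16 without PTU pup 6 and 0.18 without control pup 6. *Cdh23*, part of the tip link of hair cells, had 154 ± 47.1 and 113 ± 53.1, with 3 PTU exposed pups below the lowest control and 3 above the control mean (log2 fold change -0.56, SE 0.32, limma adjusted p = 0.384, or -0.33 without PTU pup 1).

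The 5 delta-1 protocadherin rows (*Pcdh1*, *Pcdh9*, *Pcdh11x* and both *Pcdh7* rows) had fold changes above 0, with a median of 0.34, or 0.21 without PTU pup 1. The *Pcdh7* row with most counts, at 0.11, had no settled sign, for it was at or just below 0 without PTU pup 1 (-0.0089) or control pup 6 (-0.0008). *Pcdh1* had 822 to 1362 normalized counts in controls (median 1035) and 1086 to 2799 in PTU exposed pups (median 1254). All 6 PTU exposed pups were above the control mean, but only PTU pups 1 and 6 were above the highest control. The log2 fold change was 0.52 (SE 0.19, limma adjusted p = 0.206, exact two-sided permutation p = 0.0221, unadjusted), and 0.34 without PTU pup 1.

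*Pcdh9*, a protocadherin of cortical neurons, had 1690 to 2158 in controls (median 1836) and 1922 to 3254 in PTU exposed pups (median 2102). All 6 PTU exposed pups were above the control mean, 3 of them above the highest control, and the log2 fold change was 0.27 (SE 0.11, limma adjusted p = 0.258), or 0.17 without PTU pup 1. The low *Pcdh7* row, with 2 to 34 estimated reads per pup, had 0.75 (SE 0.48, limma adjusted p = 0.448), or 0.43 without control pup 5.

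The 4 delta-2 protocadherins had fold changes on both sides of 0 (median -0.09, from -0.17 without PTU pup 6 to -0.02 without PTU pup 1). *Pcdh17*, known for sorting axons and synapses by region, had 792 to 1349 normalized counts in controls (median 1048) and 961 to 2222 in PTU exposed pups (median 1389), and 3 PTU exposed pups were above the highest control. Its log2 fold change was 0.43 (SE 0.18, limma adjusted p = 0.252, exact two-sided permutation p = 0.0635, unadjusted). *Pcdh10* had 4350 ± 329 (SD, n = 7) and 4377 ± 915 (SD, n = 6), a log2 fold change of -0.01 (SE 0.11, limma adjusted p = 0.961) that was 0.19 with the same total for every pup. The spread of *Pcdh10* was wider after PTU exposure, from 3081 in pup 4 to 5899 in pup 6, against 3953 to 5027 in controls, and this difference in spread was not tested. *Pcdh8* and *Pcdh18* each had a log2 fold change of -0.17, and *Pcdh18* was at -0.048 without PTU pup 1 and -0.11 without PTU pup 2. With the same total for every pup these were 0.035 and 0.036, and the median of the class was 0.11.

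Outside these classes, *Pcdh20* had 257 to 389 normalized counts in controls and 210 to 325 in 5 PTU exposed pups, while PTU pup 1 had 1745. Its log2 fold change was 0.16 (SE 0.35, limma adjusted p = 0.853) with all pups and -0.28 without PTU pup 1. *Pcdh15*, the other protein of the hair cell tip link, had 253 ± 66.9 and 307 ± 54.9 (log2 fold change 0.31, SE 0.19, limma adjusted p = 0.423, or 0.19 without control pup 6). *Pcdh12*, a protocadherin of endothelium, had a log2 fold change of -0.02.

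**Figure D3:**
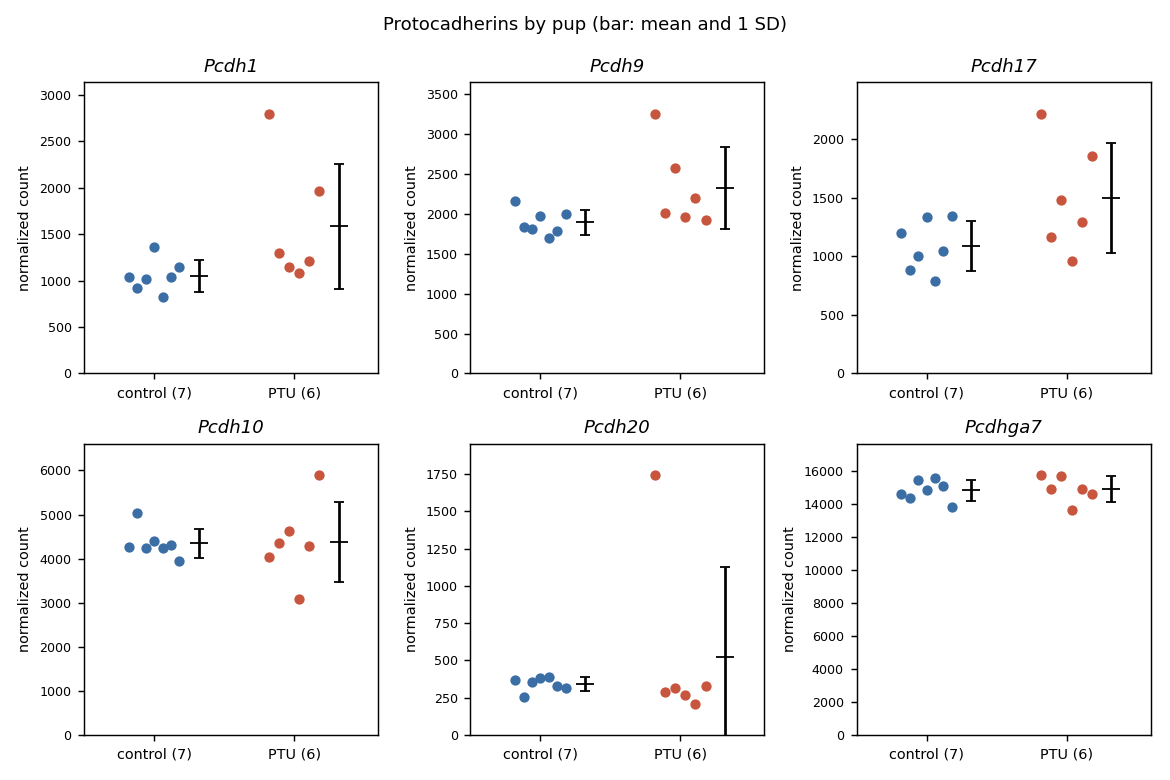
Normalized counts (y axis) of 6 protocadherins in each of the 7 control and 6 PTU exposed pups, with bars of the mean and 1 SD. PTU pup 1 is the highest point in *Pcdh1*, *Pcdh9*, *Pcdh17* and *Pcdh20*, and *Pcdhga7* lies between 13596 and 15739 in all 13 pups.

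The clustered protocadherins were 14 rows of the beta cluster and *Pcdhga7* of the gamma cluster, with 10 fold changes above 0 and 5 below (median 0.08, from -0.02 to 0.09 with 1 pup left out and below 0 without PTU pup 1). Genes of these clusters have near-identical stretches, and those of the gamma cluster share their last exons, so the split of reads between them is uncertain. *Pcdhga7* had 13778 to 15567 normalized counts in controls (median 14826) and 13596 to 15739 in PTU exposed pups (median 14900). It varied least of the 50 members between control pups (coefficient of variation 4.26%), and its log2 fold change was 0.01 (SE 0.07, limma adjusted p = 0.954), with the sign turning to -0.02 under quantile normalization.

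The beta cluster rows were low. *Pcdhb22* had 46.1 to 115 normalized counts in controls (median 78.9) and 82.0 to 144 in PTU exposed pups (median 112), and *Pcdhb5* 108 to 243 (median 156) and 169 to 238 (median 212). In both, all 6 PTU exposed pups were above the control mean and the ranges overlapped. Their log2 fold changes were 0.51 (SE 0.24, limma adjusted p = 0.296) and 0.38 (SE 0.18, limma adjusted p = 0.305). The other 12 beta rows lay between -0.26 for *Pcdhb21* and 0.47 for *Pcdhb6l*. Single pups set both ends, since *Pcdhb21* was at -0.58 without PTU pup 1, -0.11 without PTU pup 2 and -0.0062 without PTU pup 5, and *Pcdhb6l* at 0.23 without control pup 1.

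**Figure D4:**
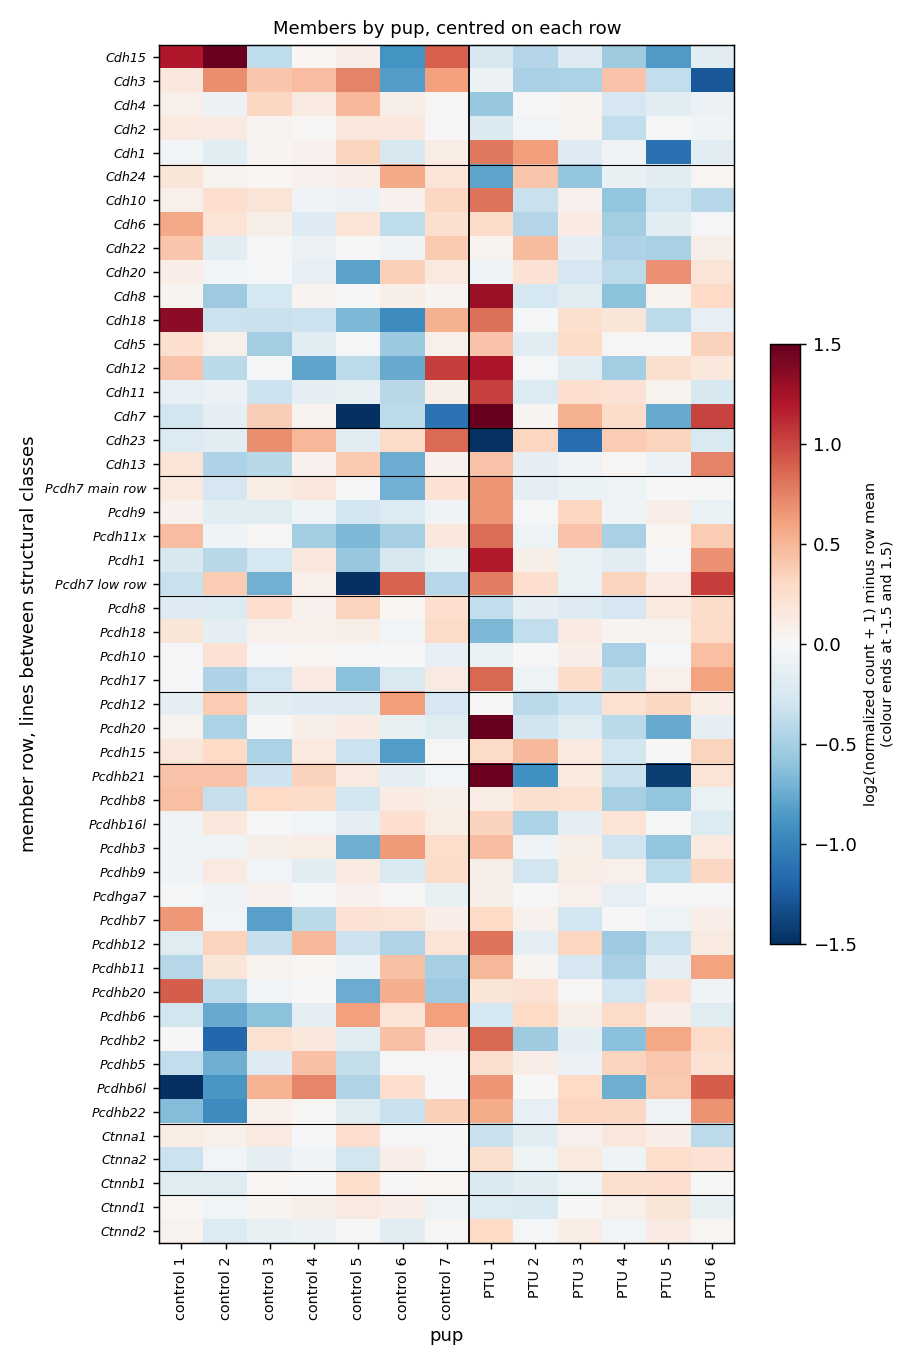
Log2(normalized count + 1) of the 50 members (rows, grouped by class) in the 13 pups (columns), each row centred on its mean over pups, with the colour scale in log2 units. The column of PTU pup 1 holds the highest value in 19 of the 50 rows.

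The genes beside the family gave values of the same order. Of 20 listed partners of the adherens junction 19 were tested, with 3 higher (*Ajap1*, *Nectin1* and *Jup*) and 1 lower (*Plekha7*) at an unadjusted p under 0.05 (8.11% and 8.2% of all rows) and a median log2 fold change of -0.06. Their extremes were *Plekha7*, which links p120-catenin to microtubules (754 to 1242 normalized counts in controls and 576 to 754 in PTU exposed pups, log2 fold change -0.47, adjusted p = 0.132 in limma), and *Ajap1*, a junction-associated membrane protein (45.5 to 116 and 61.1 to 420, log2 fold change 1.22, adjusted p = 0.171 in limma). Of 21 other genes of the cadherin superfamily 18 were tested, with 0 higher and 3 lower at an unadjusted p under 0.05 and a median of 0.04. The 3 lower genes, named after their values were seen, were *Celsr1*, of planar cell polarity (5489 to 8125 normalized counts in controls and 3716 to 5720 in PTU exposed pups, log2 fold change -0.45, limma adjusted p = 0.127), *Fat1*, a giant atypical cadherin (12400 to 16192 and 8678 to 13383, log2 fold change -0.33, limma adjusted p = 0.152), and *Cdhr4* (247 to 469 and 184 to 304, log2 fold change -0.51, limma adjusted p = 0.189). The extremes of the list were *Dsg2*, a desmosomal cadherin, at -0.73 (adjusted p = 0.476 in limma), and *Dchs2*, of the Dachsous and Fat pathway, at 0.44 (adjusted p = 0.319 in limma).

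Markers of the cell types that the captured strip or its surroundings could hold leaned one way within several lists. The 9 radial glia markers all had fold changes below 0, 5 of them with an unadjusted p under 0.05 (8.2% of all rows were lower at that level and 8.11% higher). *Sox2* was nearest to 0, at -0.08 (SE 0.11). The summed level of these markers was 74726 to 104143 normalized counts in controls and 61911 to 82327 in PTU exposed pups. The 9 neuron markers all had fold changes above 0, 5 with an unadjusted p under 0.05, but *Neurod6* at 0.005 (SE 0.47) had no settled sign. The neuron sums were 53500 to 77259 in controls and 70192 to 119988 in PTU exposed pups, the last in PTU pup 1. PTU pup 1 was highest of the 13 pups for the summed neuron markers and the summed meningeal fibroblast markers, as it was for *Pcdh1*, *Pcdh9*, *Pcdh17*, *Pcdh20*, *Cdh7*, *Cdh11* and *Ctnnd2*, and lowest for *Cdh4*. The 8 choroid plexus markers all had fold changes below 0, 4 with an unadjusted p under 0.05. Their sums, mostly *Ttr*, were 48559 to 136842 in controls and 22599 to 97073 in PTU exposed pups. No marker of these 3 lists was under 10 normalized counts in every pup. The part of cell makeup in the cadherin, protocadherin and catenin values was not tested.

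**Figure D5:**
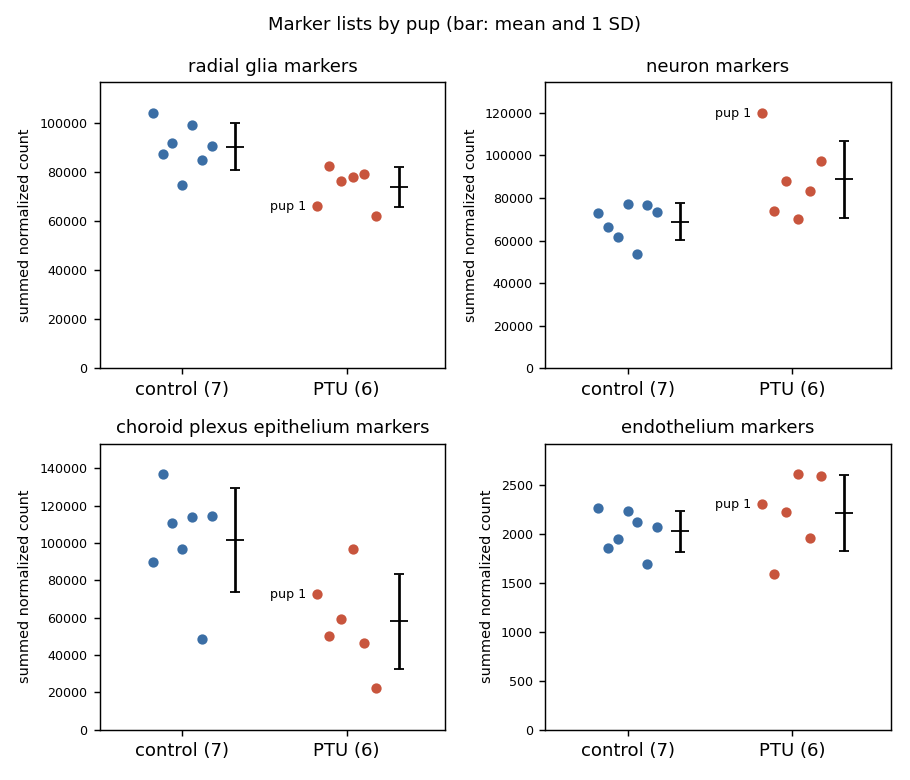
Summed normalized counts (y axis) of the marker lists of radial glia, neurons, choroid plexus and endothelium in each of the 7 control and 6 PTU exposed pups, with PTU pup 1 marked. The neuron sum of PTU pup 1 is 119988, and the choroid plexus sums, mostly *Ttr*, run from 22599 to 136842.

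The sums of the radial glia, neuron and choroid plexus lists overlapped between the groups, as did those of the remaining lists. Pericyte markers (5 tested) summed to 3027 to 3943 in controls and 2470 to 3491 in PTU exposed pups, and meningeal fibroblast markers (4 of 6 tested) to 956 to 4672 and 755 to 5277, the last in PTU pup 1. The 6 markers of the oligodendrocyte lineage all had fold changes above 0, 1 with an unadjusted p under 0.05 (16.3% of all rows), and summed to 4316 to 8130 and 5817 to 9191, and those of microglia (6 tested) to 1176 to 1876 and 1187 to 1664.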

How the data were processed

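The authors sequenced VZ RNA of 13 pups (7 control, 6 PTU exposed). Per the labels and methods, reads were trimmed with Trimmomatic, aligned to mRatBN7.2 (rn7) with STAR 2.7.8a, counted by expectation maximisation in Partek, and scaled by median ratio. What was deposited is thus a signal of normalized counts, never negative. The authors' comparison (DESeq2) was deposited as p-values, FDRs, ratios of group means, their log2, and a signed fold change score, and none of these columns was used. With that comparison the study reports differentially expressed genes at an FDR of at most 0.05, where limma called none here. The methods name a RefSeq annotation, while rows carry Ensembl identifiers. The reads behind each pup were estimated from the spacing of its low values. Of the values from 20 to 150, 88.1 to 89.7% were whole multiples of that spacing (tolerance 0.02 reads), too few for a count model.

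Rows with a mean of at least 10 (14606 of 14716) were compared as log2(normalized count + 1) with limma 3.58.1 in R 4.3.3 (variance trend, two-sided, Benjamini-Hochberg over all rows, threshold 0.05), which was checked on simulated data. Single values were compared by exact permutation over every regrouping into 7 and 6 pups. Tables were handled in Python 3.11.15 with pandas 2.3.3 and drawn with matplotlib 3.10.9. Named genes were the members with an unadjusted p under 0.05, the junction core, and the member of each class with the highest mean or the largest fold change. Members, classes, lists and this rule were chosen with earlier results of these data known. Alternatives were other pseudocounts, filters, scalings, weights and variance priors, rows summed per gene, a replicate block (without control pup 7), and each pup left out in turn. Within-pup ratios were added after the data were seen. Coordinates of promoters are those of GRCr8.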

Additional observations from a re-analysis of the deposited data

Results flagged for a closer look

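In 4 of 52 groups of named members, 1 pup lay far from the others by Dixon's criterion, which chance meets in about 1 in 20 groups. PTU pup 1 had 1745 normalized counts of *Pcdh20*, where the other 5 PTU exposed pups had 210 to 325. The same pup had 2206 of *Cdh11*, a cadherin of mesenchyme and developing neurons, against 918 to 1292 in the others. Control pup 6 had 944 of *Cdh24*, against 653 to 729 in the other controls, and control pup 2 had 5027 of *Pcdh10*, against 3953 to 4402.

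Without PTU pup 1 the log2 fold change of *Pcdh20* was -0.28 in place of 0.16. Its part in the other values was given by leaving it out, and the cause of its high values was not tested.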

How the results depend on the processing

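0 members had an adjusted p of at most 0.05 in limma under any of the 26 alternatives. The smallest adjusted p of a member among them was 0.064, with a replicate block. That block was fitted without control pup 7, so its values differ from the main fit in both respects. Of 670 values of the 26 named members under the alternatives, 23 had the other sign, all in 7 members. Over all rows, the count with an adjusted p of at most 0.05 was 0, and became 40 (18 higher, 22 lower) with array weights and 18 (2 higher, 16 lower) with the replicate block. With 1 pup left out it ranged from 0 to 179, the highest without PTU pup 2, and was 7 without control pup 6. Members with an unadjusted p under 0.05 numbered 11, and 6 to 13 with 1 pup left out. There were 6 without control pup 5 or PTU pup 1 and 7 without PTU pup 3 (13.5, 14.3 and 14.2% of all rows). There were 13 without PTU pup 2 (2997 of 14606 rows) or PTU pup 4 (2554 of 14606 rows, 17.5%). Such members numbered 15 (11 higher, 4 lower) with the replicate block, where 20.2% of all rows passed. They numbered 8 (all higher) with the same total for every pup, where 10.8% of all rows were higher and 0.554% lower. That total moved the median log2 fold change of the members to 0.28 and that of all rows to 0.20.

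That scaling turned the sign of 12 of the 50 members, of which 4 are among the 26 named, *Ctnna1* (0.032), *Ctnnd1* (0.12), *Pcdh10* (0.19) and *Cdh1* (0.17). Array weights turned *Pcdh10* (0.0161) and *Pcdh20* (-0.10), and quantile normalization (-0.025) and the replicate block (-0.0068) turned *Pcdhga7*. With 1 pup left out, log2 fold changes lay between -0.19 and 0.19 for *Cdh1*, -0.040 and 0.054 for *Ctnnb1*, -0.11 and 0.082 for *Pcdh10*, -0.28 and 0.33 for *Pcdh20*, and -0.0068 and 0.036 for *Pcdhga7*. Apart from scaling by construction, the cause of these moves was not tested.

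Same-numbered pups came from different litters. Their deviations correlated by -0.07 to 0.20, and 2 of 6 correlated best with their own number, so the block pairs pups by number alone. Rows with few reads, such as *Cdh15*, *Cdh7* and the low *Pcdh7* row, carry wide errors at this depth, and 37 of 50 member rows had a mean of at least 100.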
